A study of Mus musculus with 28 samples.

Results

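The genes described here are 10 members of the heat shock protein 70 and 90 families: Hspa1a, Hspa1b, Hspa1l, Hspa2, Hspa4l, Hspa5, Hspa8, Hspa9, Hsp90aa1 and Hsp90ab1. They were chosen by name, 10 of 37122 genes, and the level of a gene is the sum of the RPKM values of its transcripts (RPKM is the number of reads scaled to transcript length and to the mapped reads of the library). The 10 genes have 37 transcripts in the data. All 10 passed the filter on low values in every fit, a mean of at least 0.1 RPKM.

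Polyadenylated RNA was sequenced from mice that were either wildtype or knockout for Csmd1, a large transmembrane protein with complement-interacting domains. The labels give the strain as C57BL/6 and the study's methods give the colony's background as mixed 129SvEvBrd:C57BL/6. The knockout allele lacks the first exon in every cell of the animal. Sorted germ cells gave 20 libraries from 8 mice: 4 of spermatogonia (2 wildtype and 2 knockout), 6 of primary spermatocytes (2 and 4), 5 of secondary spermatocytes (2 and 3) and 5 of spermatids (3 and 2). Another 7 libraries came from whole testes (2 wildtype and 5 knockout) and 1 from a wildtype whole ovary, and no animal received a treatment. The study took males of about 40 days for sorting. It also gives RNA expression in whole testes of 20 days, before sexual maturity, but the labels give no age for a library. The study's sample list gives an age, 40 days, for mice 178 and 351 among the mice used here. One testis of a mouse served for whole tissue RNA and the other was stained with Hoechst and sorted. The methods describe the testis used for whole tissue as dissociated as well, with all dissociation at the scrotal temperature of 33 °C. A difference between whole and sorted libraries therefore covers sorting and the loss of unsorted cells more than the enzyme treatment, and RNA of whole and sorted samples was extracted with different kits.

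HSP70 proteins are ATP-driven chaperones that bind short hydrophobic stretches of unfolded proteins, with J proteins delivering the clients and nucleotide exchange factors releasing them. HSP90 proteins act later, on nearly folded kinases, receptors and other clients, together with co-chaperones. Some members are made constantly, such as Hspa8 and Hsp90ab1, and others only after stress, such as Hspa1a and Hspa1b, which heat shock factor 1 induces. Male germ cells are known for chaperones of their own: Hspa2 belongs to meiotic cells, where it is needed for spermatocytes to complete meiosis, and Hspa1l belongs to spermatids.

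The upstream sequences of 3 neighbouring genes are shown because they set the inducible members beside a testis-specific one. On chromosome 17 Hspa1a and Hspa1l are transcribed away from each other. Hspa1a lies on the minus strand at chr17:34969190-34972156 and Hspa1l on the plus strand at chr17:34972703-34979285. Hspa1b lies on the minus strand nearby, at chr17:34956436-34959238. All coordinates are of GRCm38, and the 250 bases before each gene's start are given below 5′ to 3′ on the gene's strand (RefSeq, GRCm38.p6). Capitals mark a heat shock element dimer, the pair of inverted GAA units bound by heat shock factors.
Hspa1a, chr17:34972157-34972406, minus strand: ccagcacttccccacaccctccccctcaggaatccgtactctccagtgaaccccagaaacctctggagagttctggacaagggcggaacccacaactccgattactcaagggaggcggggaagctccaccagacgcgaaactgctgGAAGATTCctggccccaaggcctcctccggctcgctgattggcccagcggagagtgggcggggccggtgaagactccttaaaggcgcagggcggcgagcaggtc
Hspa1b, chr17:34959239-34959488, minus strand: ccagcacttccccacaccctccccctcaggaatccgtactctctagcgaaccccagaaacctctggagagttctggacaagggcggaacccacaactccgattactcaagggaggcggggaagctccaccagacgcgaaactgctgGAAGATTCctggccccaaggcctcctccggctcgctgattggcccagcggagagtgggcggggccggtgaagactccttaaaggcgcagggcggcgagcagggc
Hspa1l, chr17:34972453-34972702, plus strand: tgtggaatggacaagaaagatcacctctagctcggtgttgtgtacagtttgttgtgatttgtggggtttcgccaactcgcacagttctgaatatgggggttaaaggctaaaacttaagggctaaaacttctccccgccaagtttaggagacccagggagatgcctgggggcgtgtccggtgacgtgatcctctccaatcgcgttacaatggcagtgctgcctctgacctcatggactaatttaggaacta

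The windows of Hspa1a and Hspa1b are identical at 247 of 250 bases (98.8%). Both hold the dimer GAANNTTC at 104 to 97 bases before the start. The dimer reads the same on both strands, and 6.69% of 32851 RefSeq promoter windows of 250 bases hold it. The other dimer, TTCNNGAA, is in 7.17% of windows and in none of the 6 members' windows at hand, which are those of Hspa1a, Hspa1b, Hspa1l, Hspa2, Hspa4l and Hspa5. The window of Hspa1l holds neither dimer. The window of Hspa5 holds the endoplasmic reticulum stress element at 65 to 47 bases before the start on its own strand, a motif found in 0.113% of windows searched on both strands. A match is a match of letters in the window and was not tested as a binding site.

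Several libraries stand apart and touch the results below. Depth was recovered for 27 libraries from the step between their values and came to 23820446 to 61683564 mapped reads. It is unknown for the primary spermatocytes of mouse 613, whose values do not fall on whole reads. That library also had no value for 12787 transcripts, where the other libraries lacked 865 to 2828. No transcript of the members was among those missing. In that library 4 of the 8 transcripts of Hsp90aa1 lay at 0 to 5.57 RPKM, where the other 5 primary spermatocyte libraries had 308 to 2159 RPKM for the same transcripts. Its sums for the genes with several transcripts (Hspa5, Hspa8, Hsp90aa1 and Hsp90ab1) are therefore not on the scale of the other libraries, and levels of these genes in primary spermatocytes are given for the other 5. Whether its values for the remaining members are on that scale was not tested. The library stayed in the main fits. The spermatogonia of knockout mouse 544 held 10789 RPKM summed over 6 spermatid markers (including protamines and transition proteins), where the other 3 spermatogonia libraries held 6.93 to 467 RPKM. The spermatids of mice 648 and 286 held only 259 and 249 RPKM of these markers, against 7290 to 7509 RPKM in the other 3 spermatid libraries. In mouse 648 all 5 libraries had fewer reads at the 5′ end. The ratio of a short 5′ transcript of Hsp90aa1 to the full-length one was 0.211 to 0.3 there, against 0.597 to 1.35 in the 22 other libraries with a known depth. The spermatogonia libraries also held 385 to 668 RPKM over 6 Sertoli cell markers, against 34.9 to 162 RPKM in primary spermatocytes. Among them that of mouse 648 was highest for peritubular and stromal markers (819 RPKM, the others 30.7 to 199). It was also highest for markers of Leydig cells (328 RPKM, the others 10.7 to 24.2) and macrophages (56.9 RPKM, the others 9.03 to 15.0). The part of these cells in the results below was not tested. The ovary held 146 RPKM over 6 oocyte and granulosa cell markers, and the testis libraries at most 74.1 RPKM. Levels of Csmd1 do not check the genotype here, since summed reads cover the exons that the allele keeps.

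Over the 4 sorted stages, 4 of the 10 genes differed: Hspa1b, Hspa2, Hspa8 and Hsp90ab1 (limma's moderated F test, with adjusted p of 0.0131, 0.00702, 0.00235 and 0.00911). This is near the background, since 45.2% of 22715 genes differed among the stages. All 4 also differed between spermatogonia and primary spermatocytes, and again the share of all genes that passed there was 26.6%. Hspa2 rose, 1 member where 7.54% of genes rose, and Hspa1b, Hspa8 and Hsp90ab1 fell, 3 members where 19.1% of genes fell. Of 6 meiotic markers (including Sycp1 and Dmc1) 1 rose and 1 fell on this step. They summed to 345 to 1941 RPKM in spermatogonia and to 272 (mouse 613) to 2300 RPKM in primary spermatocytes. The spermatogonia libraries thus held meiotic transcripts as well, and these markers alone do not place the entry into meiosis on this step. All 6 spermatogonia markers fell, where 19.1% of genes fell, with a median of -4.39 log2 units. By limma no member passed the test at the later steps, at the adjusted threshold or at an unadjusted p of 0.05, where 2.96% of genes passed from primary to secondary spermatocytes and 0.128% from secondary spermatocytes to spermatids. The median difference over all genes between spermatogonia and primary spermatocytes was -0.31 log2 units, with 1712 genes higher and 4334 lower. Under quantile normalization it was 0.09, with 2962 higher and 2796 lower, and 4 members passed, with Hspa4l in place of Hspa1b.

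**Figure D1:**
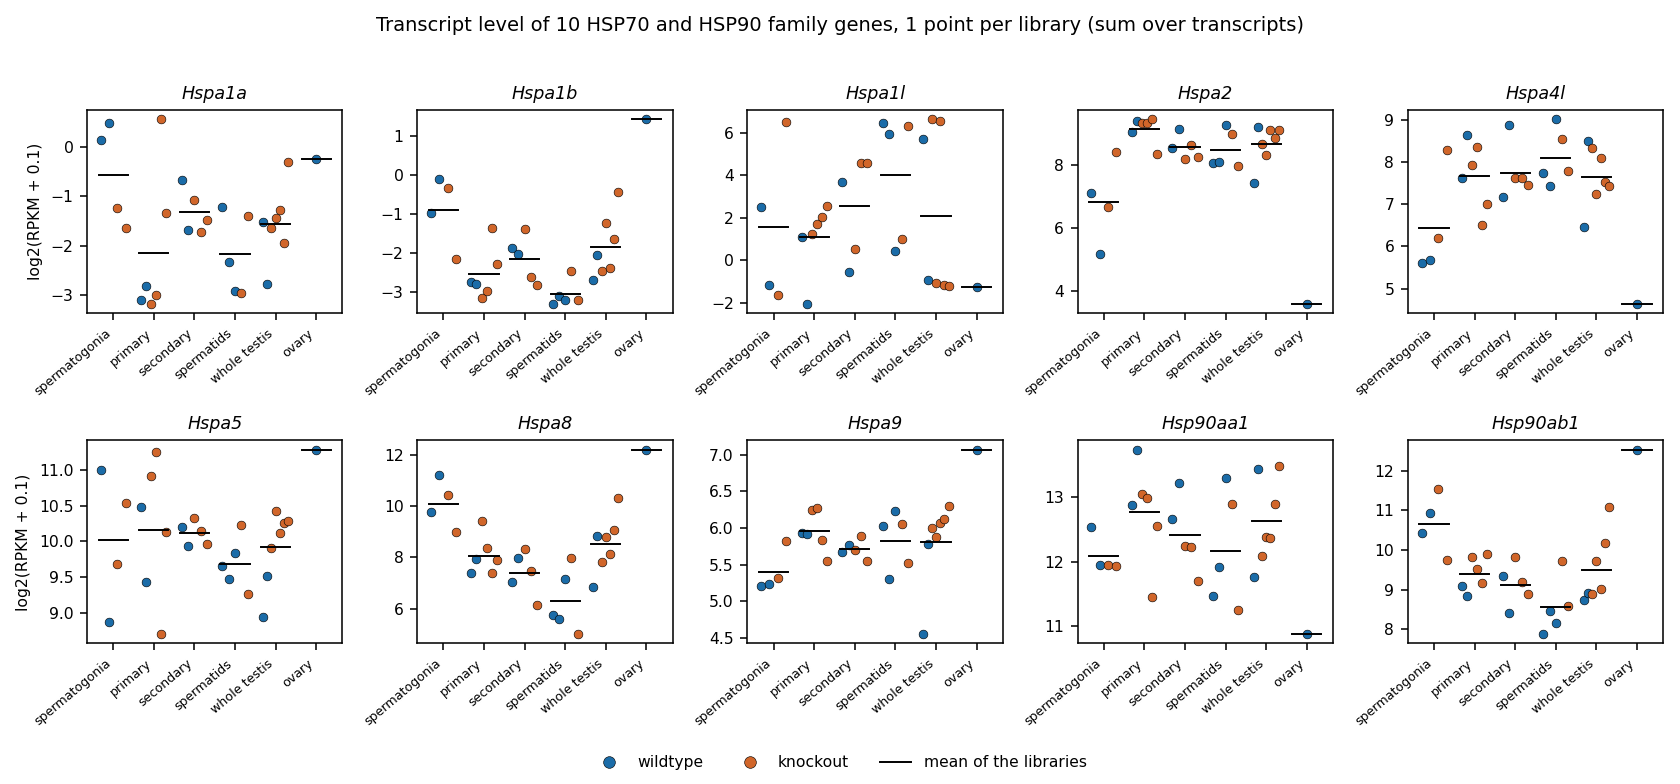
Level of each of the 10 genes on the log2(RPKM + 0.1) scale, with 1 point per library, coloured by genotype, and a line at the mean of the libraries of each stage or tissue. Hspa2 is lowest in ovary (11.9 RPKM) and in spermatogonia, Hspa8 and Hsp90ab1 are highest in ovary (4697 and 5910 RPKM), and Hspa1l splits into high and low libraries within spermatids and whole testes.

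Hspa2, the HSP70 of meiotic germ cells, was measured at 139.9, 35.8, 101.1 and 345 RPKM in the spermatogonia of mice 178, 648, 286 and 544. In the 6 primary spermatocyte libraries the lowest, median and highest levels were 329, 653 and 706 RPKM. Only the spermatogonia of mouse 544, which carry spermatid transcripts, reached the range of the primary spermatocytes. The level rose by 2.34 ± 0.49 log2 units (SE), or 5.05-fold, from spermatogonia to primary spermatocytes (limma, adjusted p = 0.00278). It was 379, 573, 294, 402 and 309 RPKM in the secondary spermatocytes of mice 178, 648, 286, 544 and 550. Spermatids held 267, 273, 619, 515 and 253 RPKM in mice 178, 351, 648, 286 and 544. The ranges of secondary spermatocytes and spermatids overlap, and neither step passed the test. The 7 whole testes had 172 RPKM at the lowest, 471 RPKM at the median and 595 RPKM at the highest, and the ovary had 11.9 RPKM.

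Hspa4l is a germ cell member of the HSP110 branch that acts as a nucleotide exchange factor for HSP70. From spermatogonia to primary spermatocytes it followed Hspa2 in direction. It was at 48.6, 51.2, 73.4 and 314 RPKM in the spermatogonia of mice 178, 648, 286 and 544. In primary spermatocytes the lowest, median and highest levels were 90.5, 221 and 398 RPKM. The 3 spermatogonia libraries other than that of mouse 544 lay below all 6 primary spermatocyte libraries. The difference was 1.34 ± 0.53 log2 units and missed the threshold (limma, adjusted p = 0.073). Without the spermatogonia of mouse 544 it was 1.87 ± 0.54 (limma, adjusted p = 0.0164). Secondary spermatocytes ranged from 144 to 468 RPKM and spermatids from 174 to 515 RPKM, with mouse 648 highest in both. Whole testes ranged from 88.4 to 364 RPKM, and the ovary had 24.7 RPKM.

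Hspa1l is the HSP70 gene of spermatids, and its level was high in the libraries with high summed spermatid markers, whatever their gate. In the spermatids of mice 178, 351 and 544 it was at 87.9, 60.8 and 80.6 RPKM, but in those of mice 648 and 286 at 1.26 and 1.93 RPKM. The spermatid markers of the same libraries summed to 7486, 7290 and 7509 RPKM in mice 178, 351 and 544, and to 259 and 249 RPKM in mice 648 and 286. The spermatogonia of mouse 544 held 91.1 RPKM of Hspa1l, where those of mice 178, 648 and 286 held 5.50, 0.348 and 0.22 RPKM. Primary spermatocytes had 0.138 RPKM at the lowest, 2.69 RPKM at the median and 5.83 RPKM at the highest. Secondary spermatocytes had 12.9, 0.577, 1.33, 23.7 and 23.6 RPKM in mice 178, 648, 286, 544 and 550. The stages overlap throughout, and no step was called for Hspa1l. Spermatids minus secondary spermatocytes came to 1.58 ± 1.62 log2 units (limma, adjusted p = 0.661), and to between 0.25 and 2.91 with 1 library left out, the spermatids of mouse 544 or of mouse 286.

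Whole testes fell into separate ranges for Hspa1l. It was at 52.9, 99.5 and 96.02 RPKM in the testes of mice 178, 214 and 273, and at 0.426, 0.367, 0.35 and 0.333 RPKM in those of mice 648, 269, 286 and 308. Their summed spermatid markers were 4792, 8705 and 10683 RPKM in the first 3 testes and 73.9, 27.1, 33.6 and 8.56 RPKM in the other 4. The ovary, with 0.632 RPKM of spermatid markers, held 0.314 RPKM of Hspa1l, which is close to the low testes. Both genotypes occur among the high and among the low testes. In whole tissue, fewer spermatids and less RNA per spermatid cannot be told apart. A difference in age cannot be separated from these either, since among these testes an age is known only for mouse 178 (40 days).

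**Figure D2:**
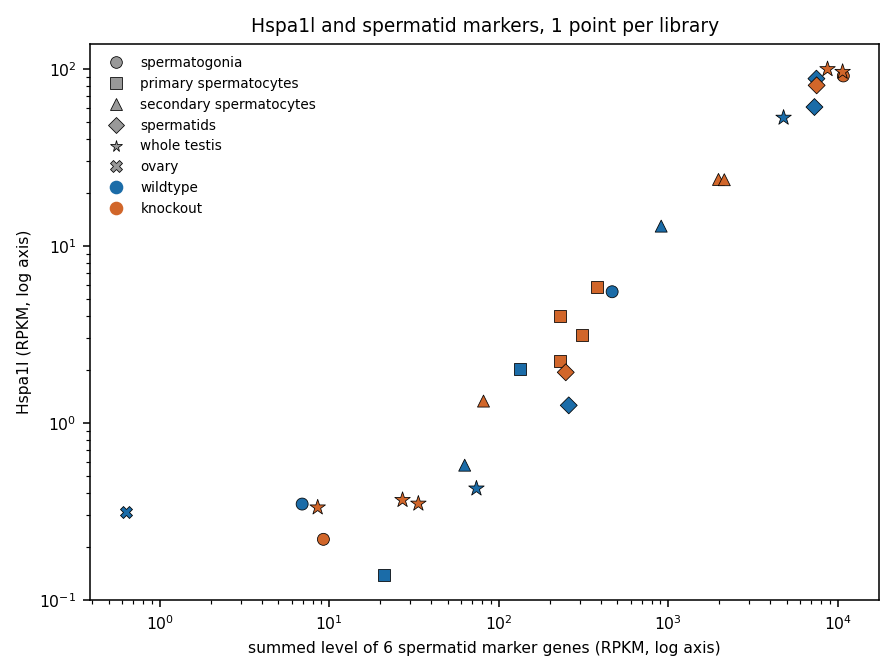
Hspa1l in RPKM against the summed RPKM of 6 spermatid marker genes, both on log axes, with 1 point per library, the shape giving the stage or tissue and the colour the genotype. The 7 libraries with 4792 to 10789 RPKM of markers hold 52.9 to 99.5 RPKM of Hspa1l, including the spermatogonia of mouse 544, and the ovary lies at the far left with 0.314 RPKM.

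Hspa1a and Hspa1b, the stress-inducible HSP70 genes, were low throughout, at no more than 1.38 and 2.60 RPKM in any library. Hspa1a had 1.002, 1.30, 0.325 and 0.22 RPKM in the spermatogonia of mice 178, 648, 286 and 544. In primary spermatocytes its lowest, median and highest levels were 0.01, 0.033 and 1.38 RPKM, the highest being the library of mouse 613. The other 5 libraries held between 1 and 30 reads of the Hspa1a transcript. Secondary spermatocytes had 0.529, 0.211, 0.379, 0.205 and 0.261 RPKM in mice 178, 648, 286, 544 and 550, so that each lay within the range of spermatogonia or just below it. Spermatids had 0.331, 0.1, 0.033, 0.028 and 0.278 RPKM in mice 178, 351, 648, 286 and 544. Primary spermatocytes minus spermatogonia was -1.79 ± 0.67 log2 units and missed the threshold (limma, adjusted p = 0.0571). Without the library of mouse 613 it was -2.17 ± 0.51 (limma, adjusted p = 0.00409).

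Hspa1b had 0.41, 0.833, 0.699 and 0.124 RPKM in the spermatogonia of mice 178, 648, 286 and 544, and 0.011, 0.046 and 0.292 RPKM at the lowest, median and highest in primary spermatocytes. The spermatogonia of mouse 544 lay within the range of the primary spermatocytes only through the library of mouse 613, which was the highest. The other 5 primary spermatocyte libraries held at most 0.104 RPKM. Hspa1b fell by 1.73 log2 units (SE 0.50) on that step (limma, adjusted p = 0.0168), and under quantile normalization the difference was -0.99 ± 0.48 (limma, adjusted p = 0.144). In spermatids it was at 0 to 0.08 RPKM, which is 0 to 11 reads. The ovary had the highest level of any library, 2.60 RPKM from 385 reads. Since Hspa1a and Hspa1b are nearly identical single-exon genes, reads could be assigned to either, and the split between them is uncertain.

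Hspa8, the constitutive cytosolic HSP70, had 863 RPKM (mouse 178), 2346 RPKM (648), 1386 RPKM (286) and 507 RPKM (544) in spermatogonia. Primary spermatocytes had 166 RPKM at the lowest, 244.6 RPKM at the median and 685 RPKM at the highest. Of the 5 libraries only that of mouse 544 exceeded a spermatogonia library, that of the same mouse. Hspa8 fell by 2.13 log2 units (SE 0.65), or 4.37-fold lower, on that step (limma, adjusted p = 0.0222), and without mouse 613 the difference was -1.98 ± 0.64 (adjusted p = 0.0249). Levels were then 70.8 to 319 RPKM in secondary spermatocytes and 32.1 to 249 RPKM in spermatids, where the spermatids of mouse 286 were highest and those of mouse 544 lowest. Spermatids minus secondary spermatocytes was -1.09 ± 0.63 log2 units and missed the threshold (limma, adjusted p = 0.418). It was -0.35 without the spermatids of mouse 544 and -1.83 without those of mouse 286. Whole testes ranged from 115 RPKM (mouse 178) to 1258 RPKM (mouse 308), with a median of 446.9 RPKM, and the ovary had 4697 RPKM.

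The make-up of the cytosolic HSP70 pool differed between stages and tissues. With the longest coding transcript of each gene, so that genes can be compared per length, Hspa2 made up 51.8, 9.75, 33.7 and 69.8% of the summed RPKM of Hspa1a, Hspa1b, Hspa1l, Hspa2 and Hspa8 in the spermatogonia of mice 178, 648, 286 and 544. It made up 89.4 to 96.03% in the 5 primary spermatocyte libraries other than that of mouse 613. Each of these 5 libraries thus lay above every spermatogonia library. In secondary spermatocytes the share was 87.5 to 94.0%. In spermatids Hspa2 held 73.7, 80.3 and 74.9% in mice 178, 351 and 544, with 24.3, 17.9 and 23.8% held by Hspa1l, and 96.7 and 93.3% in mice 648 and 286. In the ovary 97.5% was Hspa8 and 1.89% was Hspa2. Hspa1a and Hspa1b each had at most 0.415% of the pool in any of these 27 libraries. These shares are a description of the per-length levels and were not tested.

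**Figure D3:**
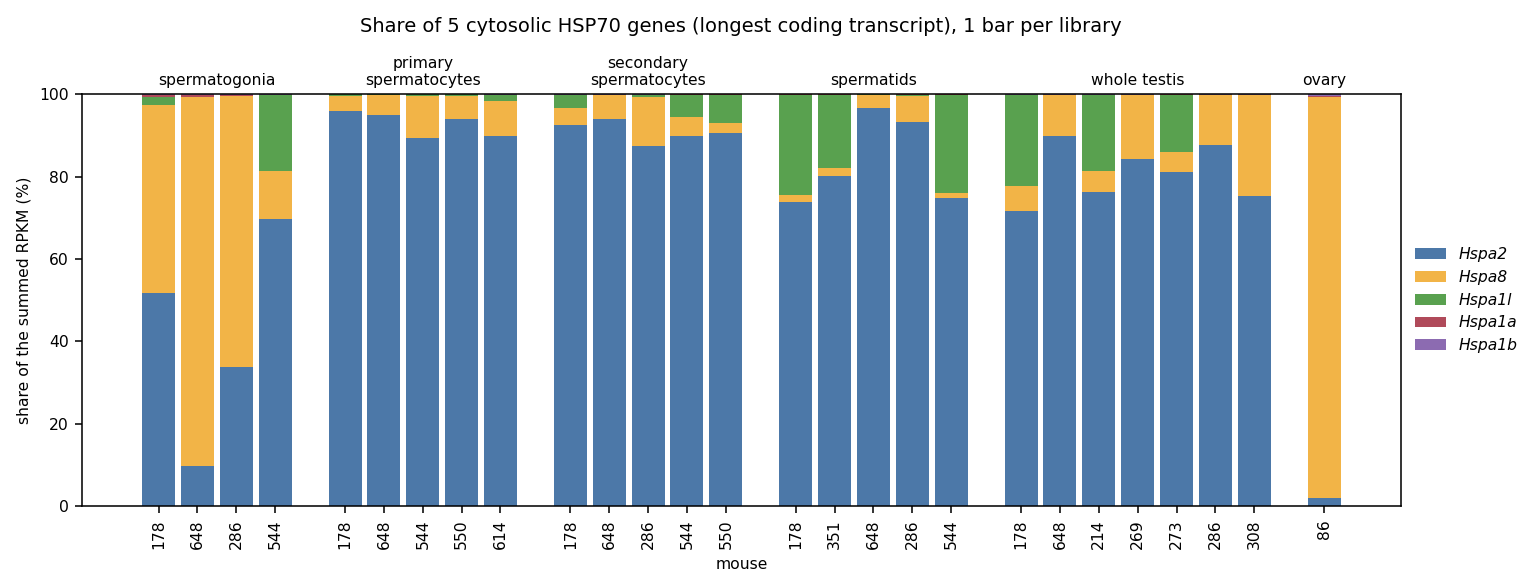
Share in percent of 5 cytosolic HSP70 genes in their summed RPKM (longest coding transcript), with 1 bar per library grouped by stage or tissue and labelled by mouse. Hspa2 holds 89.4 to 96.03% in primary spermatocytes, Hspa8 holds 97.5% in ovary, and Hspa1l appears in the libraries with spermatid transcripts. The library of mouse 613 is left out.

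Hsp90ab1, the constitutive cytosolic HSP90, had 1375 RPKM (mouse 178), 1957 RPKM (648), 2979 RPKM (286) and 860.2 RPKM (544) in spermatogonia. Primary spermatocytes had 455 RPKM at the lowest, 738.8 RPKM at the median and 956 RPKM at the highest, and again only the spermatogonia of mouse 544 lay within that range. Hsp90ab1 fell by 1.38 log2 units (SE 0.43), or 2.60-fold lower (limma, adjusted p = 0.0262), and without mouse 613 the difference was -1.31 ± 0.41 (adjusted p = 0.0214). It ranged from 339.7 to 900.3 RPKM in secondary spermatocytes and from 234 to 846 RPKM in spermatids. The ovary had 5910 RPKM.

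Hsp90aa1, the other cytosolic HSP90 and the more inducible one in most tissues, was high in every testis library. Spermatogonia had 5919 RPKM in mouse 178 and 3923 to 3941 RPKM in mice 648, 286 and 544. Primary spermatocytes had 5981, 8126 and 13636 RPKM at the lowest, median and highest, the highest being mouse 648. The difference of 0.82 ± 0.53 log2 units over all libraries did not pass (limma, adjusted p = 0.287), nor did the 0.99 ± 0.45 without mouse 613 (adjusted p = 0.0975). Secondary spermatocytes ranged from 3333 to 9502 RPKM and spermatids from 2424 to 10056 RPKM, with mouse 648 highest in both. The ovary, at 1878 RPKM, was below the 26 testis libraries other than that of mouse 613.

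Per length, and with mouse 613 left out, the ratio of Hsp90aa1 to Hsp90ab1 was 3.61, 1.53, 1.13 and 4.30 in the spermatogonia of mice 178, 648, 286 and 544. It was 5.58 to 23.3 in primary spermatocytes, 4.25 to 21.97 in secondary spermatocytes, 6.19 to 27.7 in spermatids and 4.05 to 17.2 in whole testes. In the ovary it was 0.277. Hsp90aa1 was thus above Hsp90ab1 in each of the 26 testis libraries compared and below it in the ovary. In the library of mouse 613 the longest coding transcripts stood at 58.7 RPKM for Hsp90aa1 and 128.5 RPKM for Hsp90ab1. Mouse 648 had the highest ratio of each of the 3 later stages and of the whole testes, and it is also the mouse with few 5′ reads. The part of that in the ratio was not tested.

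**Figure D4:**
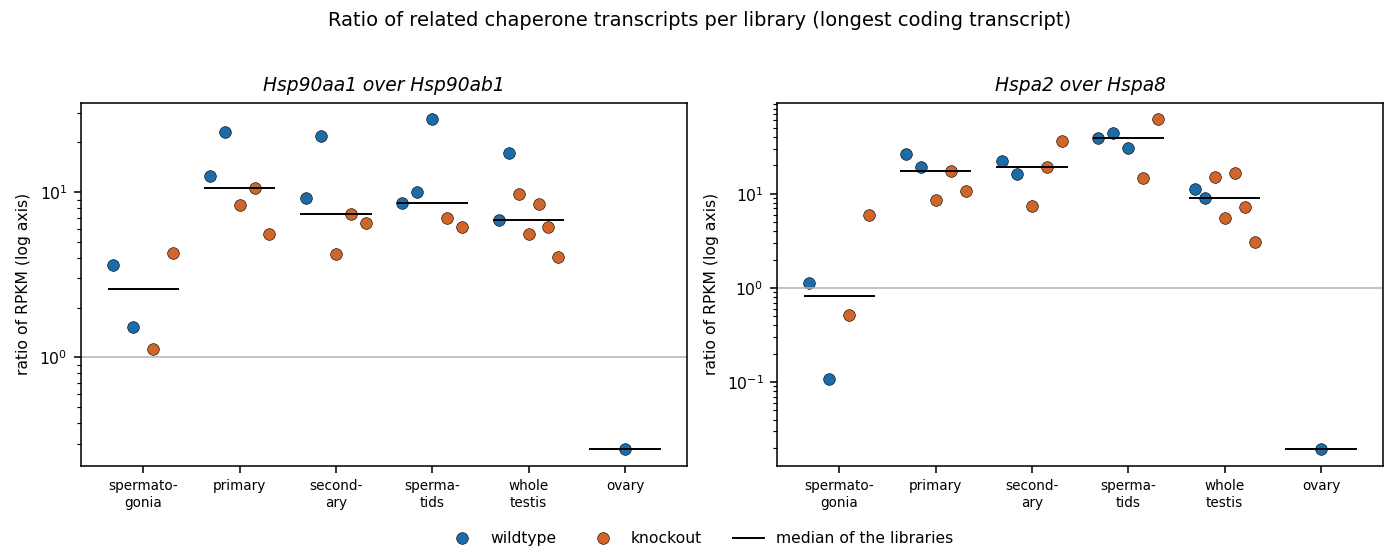
Ratio of Hsp90aa1 to Hsp90ab1 (left) and of Hspa2 to Hspa8 (right), from the RPKM of the longest coding transcript on a log axis, with 1 point per library, coloured by genotype, and a line at the median. The Hsp90aa1 to Hsp90ab1 ratio is 0.277 in ovary and at least 1.13 in the 26 testis libraries shown, and the Hspa2 to Hspa8 ratio is 0.0194 in ovary and 8.65 to 26.7 in primary spermatocytes. The library of mouse 613 is left out.

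The chaperones of other compartments passed no stage test. Hspa5, the HSP70 of the endoplasmic reticulum, had 2055, 466, 823 and 1482 RPKM in the spermatogonia of mice 178, 648, 286 and 544 and 689.7 to 2451 RPKM in primary spermatocytes. The groups overlap, and the difference was 0.08 log2 units with a 95% interval of -1.07 to 1.23 (limma, adjusted p = 0.936). Without mouse 613 it was 0.34 ± 0.44 (limma, adjusted p = 0.603). Hspa9, the HSP70 of mitochondria, had 36.7, 37.5, 39.8 and 56.5 RPKM in spermatogonia of the same mice and 46.7 to 76.9 RPKM in primary spermatocytes. Its difference was 0.55 log2 units with a 95% interval of -0.12 to 1.23 (limma, adjusted p = 0.226). In the ovary both were above every testis library, Hspa5 at 2501 RPKM and Hspa9 at 134 RPKM. Ovary values come from 1 library and were not tested.

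The calls between spermatogonia and primary spermatocytes rested in part on mouse 648, whose spermatogonia were highest in stromal, Leydig and macrophage markers. With its 4 sorted libraries left out, none of the 10 genes passed on this step, where 7.36% of genes did, and 1 (Hspa8) passed over the 4 stages, where 21.4% of genes did. Single libraries mattered too. How many of the 10 genes passed depended on which library was left out, and the count over all genes moved as well. With 1 library left out in turn, the difference ran from 1.85 to 2.83 log2 units for Hspa2 and from -2.49 to -1.77 for Hspa8. It ran from -2.18 to -1.27 for Hspa1b and from -1.83 to -0.93 for Hsp90ab1. With mouse 648 left out the difference was 1.76 ± 0.58 log2 units for Hspa2, -1.91 ± 0.85 for Hspa8 and -1.19 ± 0.61 for Hsp90ab1 (limma, adjusted p of 0.08, 0.181 and 0.248). With the mouse as a block, which accounts for the pairing of libraries from 1 animal, 6 members passed on this step, where 35.7% of genes did. Hspa1a (adjusted p = 0.0126) and Hspa4l (adjusted p = 0.0215) were added to the other 4 by limma. Over the 4 stages 7 members passed under the block, where 62.2% of genes did.

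**Figure D5:**
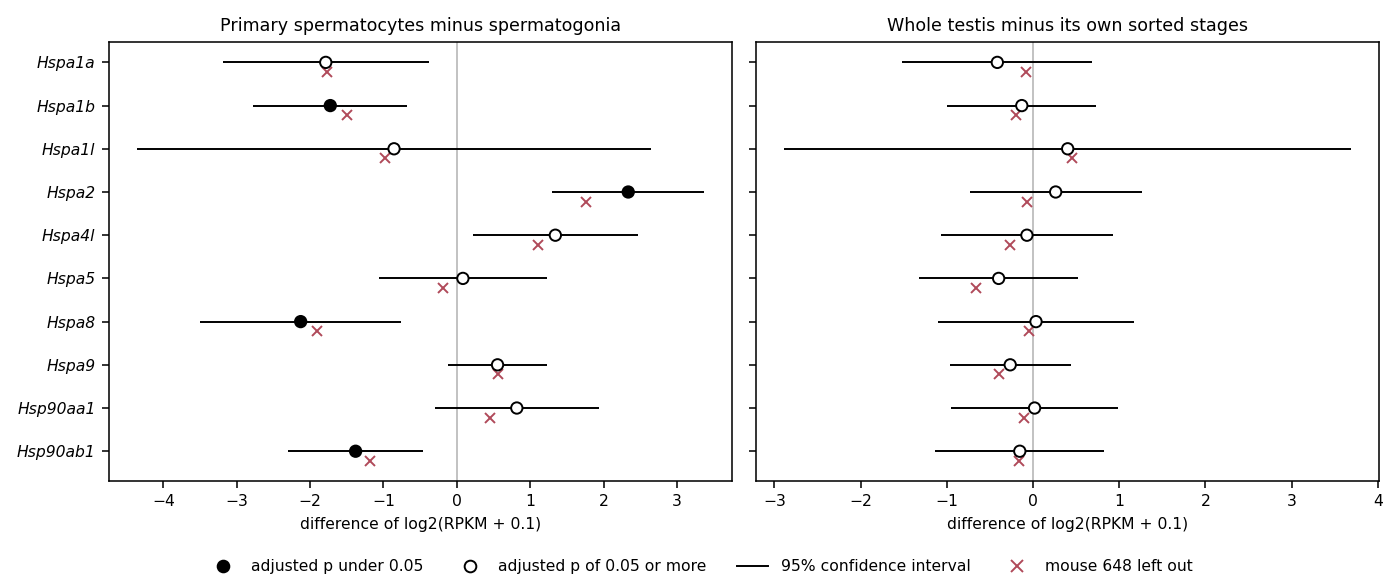
Difference in log2(RPKM + 0.1) for each gene between primary spermatocytes and spermatogonia (left) and between whole testis and the sorted stages of the same mice (right). Points show the limma estimate with its 95% confidence interval, filled where the adjusted p is under 0.05, and crosses show the estimate without mouse 648. On the left Hspa2 lies at 2.34 and Hspa8 at -2.13, and on the right every interval includes 0.

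Whole testis was compared with the sorted libraries of the same mice. The fitted difference gives the 4 sorted stages equal weight, whatever their share of the testis. It therefore cannot show by itself whether sorting raised the inducible genes. The comparison used 3 mice (178, 648 and 286) with 14 libraries, in a fit of 22281 genes. No member differed by limma, either at the adjusted threshold or at an unadjusted p of 0.05, where 0.018% of all genes passed the adjusted threshold. Those were 4 genes, named after their values were seen: the globin genes Hbb-bs, Hba-a1 and Hba-a2 were higher in whole testis, by 6.41, 5.54 and 6.47 log2 units, and Gm17590 fell by 3.42.

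Hspa1a was at 0.251, 0.045 and 0.16 RPKM in the whole testes of mice 178, 648 and 286, and the sorted libraries of the same mice spanned 0.017 to 1.002, 0.033 to 1.30 and 0.028 to 0.379 RPKM. Each whole testis thus lay within the range of its own sorted cells. A whole testis mixes these stages with other cells, so a value within so wide a range does not show whether sorting changed the level. Whole minus sorted was -0.41 log2 units with a 95% interval of -1.51 to 0.69 by limma. Hspa1b lay within the range in all 3 mice too, at -0.13 log2 units with an interval of -0.99 to 0.73. For Hspa1l the value was 0.40 log2 units with an interval of -2.88 to 3.69, so that a large difference in either direction could not be seen at this number of mice.

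For the other 7 genes the difference lay between -0.40 (Hspa5) and 0.26 (Hspa2) log2 units. No member was below, and none above, all sorted libraries of the same mouse in all 3 mice, which held for 0.215% and 0.251% of genes. Single mice went their own way. In mouse 178 the whole testis was below every sorted library for Hspa5 (490.5 RPKM against 802 to 2055) and Hspa9 (23.4 RPKM against 36.7 to 64.9). In mouse 286 it was above them for Hspa9 (69.5 RPKM against 39.8 to 66.2) and Hsp90aa1 (7629 RPKM against 3941 to 7579). The intervals are wide. The fit treated the libraries as independent and did not pair them by mouse. Its p-values thus measure the spread between libraries of a stage or tissue, not between paired differences within mice.

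Other stress genes were read beside the members. The 13 immediate early genes, which dissociation is known to induce within minutes, summed to 79.0, 255 and 2363 RPKM at the lowest, median and highest in spermatogonia, the highest being mouse 648. They summed to 262 RPKM in the primary spermatocytes of mouse 613 and to 14.1 to 70.9 RPKM in those of the other mice. Whole testes had 73.9 to 654 RPKM. Of the 13, 10 fell from spermatogonia to primary spermatocytes and none rose, where 19.1% of all genes fell and 7.54% rose. Their median was -2.73 log2 units against -0.31 over all genes tested. Markers of other cells fell too: 4 of 5 tested for Sertoli cells, 5 of 6 for macrophages and 6 of 6 for peritubular and stromal cells. For Leydig cells 1 of 6 fell. Dusp1, a phosphatase of MAP kinases, fell by 2.66 log2 units, and the transcription factors Fos and Nr4a1 fell by 3.92 and 3.04 (limma, adjusted p of 0.0013, 0.00296 and 0.00902). In whole testis against its own sorted stages none of the 13 passed, with a median of 0.50 log2 units. By the median over libraries, Sertoli cell markers and immediate early genes were thus highest in the same sorted stage as Hspa1a and Hspa1b, and their part in those levels was not tested.

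Among the partners of the HSP70 and HSP90 proteins, few passed from spermatogonia to primary spermatocytes, where 7.54% of all genes rose and 19.1% fell. Of 18 J proteins 1 rose and none fell: Dnajb1, a stress-inducible partner of HSP70, rose by 1.55 log2 units (limma, adjusted p = 0.0121). Of 9 nucleotide exchange factors 2 rose, Sil1 (1.40), which serves Hspa5, and Bag5 (1.48). Of 17 HSP90 co-chaperones 1 rose, Fkbpl (1.95), and 2 fell, the myosin chaperone Unc45a by 1.85 and the steroid receptor co-chaperone Fkbp5 by 1.98. The medians of these lists were 0.27, 0.38 and 0.41 log2 units. None of 9 other HSP70, HSP110 and HSP90 genes passed on this step. Over the 4 stages, where 45.2% of all genes differed, 2 of these 9 did. They were Hspa14, a ribosome-associated HSP70, and Hyou1, the HSP110 of the endoplasmic reticulum (limma F test, adjusted p of 0.000551 and 0.00655). Hspa14 had 43.6 to 119 RPKM in spermatogonia and 2.61 to 11.02 RPKM in spermatids.

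For the next lists the background is the same step, from spermatogonia to primary spermatocytes, where 7.54% of all genes rose and 19.1% fell. Among 5 heat shock factors Hsf5, a factor of meiotic germ cells, rose by 2.21 log2 units and Hsf2 fell by 2.13 (limma, adjusted p of 0.0167 and 0.00859). The mitochondrial chaperonin also fell. Its subunits Hspd1 and Hspe1 were lower in primary spermatocytes by -3.39 and -3.70 log2 units (limma, adjusted p of 0.000748 and 0.00053), while Hspb6, a small heat shock protein, rose by 1.83. Hspd1 was at 25.1 to 83.4 RPKM in spermatogonia and 1.06 to 16.1 RPKM in primary spermatocytes. Of 13 genes of the unfolded protein response 2 rose and 3 fell. Among them the chaperone partner Sdf2l1 rose by 2.30 and the transcription factor Ddit3 by 1.78, whereas the stress sensor Ern1 fell by 2.57 log2 units. At the later steps, 1 J protein (Dnajc3, -1.66) and 1 immediate early gene (Klf4, 2.74) passed between primary and secondary spermatocytes, where 2.96% of all genes did. No gene of the 8 lists passed between secondary spermatocytes and spermatids, where 0.128% of all genes did.

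Genotype was compared over the sorted stages together and in whole testis to ask whether loss of Csmd1 altered the chaperones. No member differed between knockout and wildtype averaged over the 4 sorted stages, at the adjusted threshold or at an unadjusted p of 0.05, with differences from -0.53 (Hsp90aa1) to 1.30 (Hspa1l) log2 units and a smallest adjusted p of 0.665 by limma. Over all genes 0.0088% passed, the 2 genes Gm8730 and Gm13123, named after their values were seen. This fit treated libraries of the same mouse as independent, although genotype differs between mice and not within them. With the mouse as a block no gene passed. No member and no gene passed the test of genotype by stage (limma F test, 0% of genes, 514 genes at an unadjusted p under 0.05). The value for Hspa1l turned to -0.56 without mouse 648.

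In whole testis no member passed either, and nor did any gene (0% of 22768, against 2492 at an unadjusted p under 0.05). Hspa5 was 958, 1380.3, 1115, 1223 and 1254 RPKM in the knockout testes of mice 214, 269, 273, 286 and 308, and 490.5 and 728 RPKM in the wildtype testes of mice 178 and 648. Every knockout testis lay above both wildtype testes for Hspa5 and for Hspa9, 2 of the 10 members, and this held for 15.9% of all genes. The difference was 0.98 ± 0.35 log2 units (limma, unadjusted p = 0.021, adjusted p = 0.362), beside a median of 0.39 over all genes. For Hspa9 it was 0.91 ± 0.42 log2 units (limma, adjusted p = 0.48), and 0.30 without the wildtype testis of mouse 178 and 1.52 without that of mouse 648. Under quantile normalization the median over all genes was 0.03. The summed spermatid markers ranged from 8.56 to 10683 RPKM in knockout and were 73.9 and 4792 RPKM in wildtype testes, and their part in these differences was not tested. Age, known here only for the wildtype testis of mouse 178, was not tested either.

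Genes whose pattern over the 28 libraries was most like that of a member were found by Pearson's r of log2(RPKM + 0.1) among 15300 genes with a mean of at least 1 RPKM. The libraries share mice, stages and depth, so that r describes likeness alone. For Hspa1l they were 1700001K19Rik, 4921530L21Rik and H2al2a, a spermatid histone gene (r of 0.990, 0.988 and 0.987). For Hspa2 they were Ttc30a2, Wdr20rt and Arhgef33 (r of 0.973, 0.967 and 0.960), of which Ttc30a2 was at 0.08 RPKM in the ovary. For Hspa4l they were Agtpbp1, Armc2 and Iqch (r of 0.983, 0.967 and 0.960). For Hspa1a they were Jund, Ndrg2 and Klf16, with lower r of 0.895, 0.840 and 0.831. Jund, a member of the AP-1 family of transcription factors, was at 36.8 RPKM in the ovary and at 1.22 to 40.8 RPKM in testis libraries.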

How the data were processed

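The authors mapped paired-end reads to Ensembl release 72 transcripts with TopHat2 and deposited RPKM values per transcript, which were used as deposited. In 27 of 28 libraries value times length fell on whole reads (93.07 to 94.56% of the low values lay within 0.06 of a read), which gave the depth. Such reads and depths cover counting error only. The PEER adjustment and PoissonSeq test named in the methods were not run. PoissonSeq needs counts, which RPKM values are not, and the PEER software was not available. Quantile normalization was an alternative. Transcripts were assigned to genes with GENCODE M21 (95.62% matched) and summed. Missing transcript values added nothing to a sum. Where a gene has several overlapping transcripts the sum counts shared reads repeatedly, so genes were compared with each other only by the longest coding transcript.

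Tests used limma 3.58.1 in R 4.3.3 on log2(RPKM + 0.1), with a filter of a mean of at least 0.1 RPKM, a trended eBayes and Benjamini-Hochberg adjustment over all genes, at 0.05. A fold change on this scale understates low genes. Sorted stages were fitted as 8 groups of genotype by stage, and stage steps are the mean of both genotypes. Fits were tested on simulated data. Figures and tables used Python 3.11.15, numpy 2.4.6, pandas 2.3.3 and matplotlib 3.10.9.

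Mouse numbers in the labels pair libraries of the same animal. The median correlation of residuals was 0.453 over 22 within-animal pairs and -0.0458 over 151 pairs from different animals. Alternatives were 2 other pseudocounts, other filters, quantile normalization, other transcript choices, the mouse as a block, and libraries left out, of which 2 combined settings were chosen after seeing the data. All 10 members were named, up to 3 called genes of each of the 8 pathway lists with the smallest adjusted p, and the 3 genes most like Hspa1a, Hspa1l, Hspa2 and Hspa4l. The members and lists were chosen with earlier results of these data known.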

Additional observations from a re-analysis of the deposited data

Results flagged for a closer look

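Hspa2 in the knockout primary spermatocytes was flagged because mouse 614 lay far below the other 3. It had 329 RPKM, against 651, 654 and 706 RPKM in mice 550, 544 and 613, and its gap to the nearest library was 0.894 of the whole range on the log2 scale, above Dixon's 95% critical value for 4 samples. It was the only flag among 20 gene and group combinations, where chance gives about 1 in 20. The library of mouse 614 also had the highest Hspa1l of the primary spermatocytes, 5.83 RPKM, and 378 RPKM of summed spermatid markers, and their part in its Hspa2 level was not tested.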

How the results depend on the processing

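With mouse 648 left out, 1 member and 4887 genes passed over the 4 stages (4 and 10268 with it), and 0 members and 1682 genes passed from spermatogonia to primary spermatocytes (4 and 6046). Without that mouse and the spermatogonia of mouse 544, the latter step had 1 member and 3490 genes. The replicate block, which pairs libraries by mouse, gave 7 members over the 4 stages. No member passed in any other comparison under any alternative run. The cause of these shifts was not tested.

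Counts over all genes moved more. From primary to secondary spermatocytes (673 genes) they were 214 with a pseudocount of 1, 432 under quantile normalization, 4121 under the replicate block, 11 without mouse 648, 1710 without mouse 613, 1687 without the spermatogonia of mouse 544, 412 without both 544 and 648, and 0 in wildtype alone. From secondary spermatocytes to spermatids (29 genes) they were 85 and 8 with pseudocounts of 0.01 and 1, 61 with no filter, 64 with a mean of at least 1 RPKM, 102 with transcripts present in all libraries, 1706 under the replicate block, 331 without mouse 613 and 96 without it under quantile normalization. They were 0 under quantile normalization alone, with the longest coding transcript, without mouse 648, without 544 and 648, and in wildtype alone. For genotype in sorted stages (2 genes) they were 6 with no filter, 1 with a pseudocount of 1, a mean of at least 1 RPKM or without the spermatogonia of mouse 544, and 0 under the replicate block, without mouse 648, or without 544 and 648. The test of genotype by stage gave 17 with no filter (0). Whole against sorted (4 genes) gave 2 with no filter and 0 without mouse 648. Genotype in whole testis (0 genes) gave 1 with a pseudocount of 0.01 and 160 without mouse 648.

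Some differences that passed no test changed sign. From spermatogonia to primary spermatocytes Hspa1l was 1.18 without the spermatogonia of mouse 544 and 1.06 without 544 and 648, and Hspa5 was -0.14 under quantile normalization, -0.19 without mouse 648 and -0.043 under quantile normalization without mouse 613. For genotype in sorted stages Hspa1l was -0.56 without mouse 648 and -1.58 without 544 and 648. For whole against sorted, Hspa1b was 0.18 with a pseudocount of 0.01, Hspa4l 0.089 under quantile normalization, Hspa8 -0.0039 with the longest coding transcript and -0.037 under the replicate block, and without mouse 648 Hspa2 was -0.065, Hspa8 -0.049 and Hsp90aa1 -0.11.

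Leaving out each library in turn gave 1 to 6 members over the 4 stages and 1 to 6 members and 3266 to 7712 genes from spermatogonia to primary spermatocytes. The counts of genes were 0 to 1710 and 0 to 331 at the later steps, 1 to 387 for genotype in sorted stages, 0 to 4 for whole against sorted and 0 to 160 for genotype in whole testis. On the first step Hspa1l ran from -2.90 to 1.18 and Hspa5 from -0.45 to 0.62. For whole against sorted the ranges were -0.37 to 0.15 for Hspa1b, -1.85 to 1.59 for Hspa1l, -0.092 to 0.80 for Hspa2, -0.58 to 0.45 for Hspa4l, -0.37 to 0.74 for Hspa8, -0.58 to 0.20 for Hspa9, -0.35 to 0.49 for Hsp90aa1 and -0.60 to 0.12 for Hsp90ab1. Where this left 1 library in a group, that library was assumed to vary like the others.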
